A study of Mus musculus with 4 samples.

Results

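The histone-high cells described here were cells sorted as germinal center (GC) B cells of mouse spleen with abundant mRNA of the replication-dependent histone genes and little mRNA of mitotic genes. They were chosen by their counts. Barcodes of both mRNA libraries with 100 to 5500 genes and under 10% mitochondrial counts were kept, and each gene was scaled to 10000 unique molecular identifiers (UMIs) per cell (CP10K). A cell was histone-high when *Jchain* was under 50, the sum of *Hist1h2ap* and *Hist1h1b* was at least 10 and the sum of *Cdc20*, *Ccnb1* and *Cenpf* was under 3 CP10K. This gave 1601 of 28550 kept barcodes, 1437 of 23467 from the CD45.2 sort and 164 of 5083 from the CD45.1 sort. Of the barcodes with *Jchain* under 50 the members were 7.53% in the CD45.2 sort (95% exact binomial interval 7.16 to 7.91) and 4.47% in the CD45.1 sort (3.82 to 5.19). Intervals cover counting error only. Because the counts themselves chose the members, every value that sets them against other cells of the same libraries is a description without a test.

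The study asked how B cells without DOCK8, a guanine nucleotide exchange factor needed for lasting antibody responses, behave in the GC. Splenic B cells of MD4 mice, whose transgenic B cell receptor binds hen egg lysozyme (HEL), were transferred as mixtures into wild type CD45.1 recipients that were immunized with sheep red blood cells coupled to HEL. On day 8 the splenic B cells of 6 recipients, 3 per group, were marked with 1 of 6 hashtag antibodies each, pooled, and sorted as CD95+ cells that bind HEL into CD45.2 and CD45.1 fractions. Each fraction gave 1 mRNA and 1 hashtag library by 3′ droplet sequencing. The CD45.1 cells were Dock8 wt/wt, carried no BCL2 transgene and came from all 6 mice. The CD45.2 cells carried a BCL2 transgene restricted to B cells, which delays cell death, and were Dock8 wt/wt in 3 mice and Dock8 cpm/cpm in the other 3. The cpm allele came from ENU mutagenesis and is described as DOCK8-null. The groups are written below as wt/wt-labelled and cpm/cpm-labelled mice, and CPM in capitals stands for UMI counts scaled to a total of 1000000. The recipients were CD45.1 themselves, so the CD45 allele did not set the CD45.1 sort apart from the host's own B cells. The binding of HEL did, and where the study describes the sequenced cells, the IgMa allotype as well. The transgene, the CD45 allele and the library separated the CD45.2 from the CD45.1 cells together and cannot be told apart.

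In the GC, B cells divide and mutate their antibody genes in the dark zone and are selected by antigen and T cell help in the light zone. During S phase a cell copies its DNA and must wrap the new DNA in nucleosomes, so the clustered histone genes are transcribed and their mRNAs stabilized in S phase, then degraded when replication ends. These mRNAs end in a conserved stem-loop bound by SLBP in place of a poly(A) tail, whereas replacement histones such as H2A.Z and H3.3 are made from ordinary polyadenylated mRNAs throughout the cycle. The genes that license and fire replication origins are induced earlier, at the passage from G1 into S phase, and the mitotic genes later, from G2 on.

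The stem-loop that follows the stop codon is shown because it marks the mRNAs on which the cells were chosen. A 16-base pattern, which reads GG, 2 free bases, CTTTT, 1 free base, AG, 2 free bases and CC, was searched on the sense strand in the 150 bases after the stop codon (GRCm38, GENCODE M21). It was found in 60 of 67 clustered histone genes and in 2 of 21407 other coding genes (0.00934%), 21 to 58 bases after the stop codon with a median of 31. Only 6 distinct sequences occurred. Capitals mark the 4 bases of the loop.

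Stem-loop of 38 genes, among them *Hist1h2ap*, *Hist1h1b* and *Hist1h2ae*: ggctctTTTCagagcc

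Stem-loop of 9 genes: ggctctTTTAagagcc

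Stem-loop of 8 genes: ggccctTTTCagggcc

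Stem-loop of 2 genes: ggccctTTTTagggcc

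Stem-loop of another 2 genes: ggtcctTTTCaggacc

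Stem-loop of 1 gene: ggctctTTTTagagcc

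For *Hist1h2ap* (chr13:21833026-21833507, minus strand), an H2A gene of the main cluster, the stem-loop lay at chr13:21833029-21833044, for the linker histone gene *Hist1h1b* (chr13:21779883-21780625, minus strand) at chr13:21779837-21779852 and for the H2A gene *Hist1h2ae* (chr13:23570517-23571220, minus strand) at chr13:23570668-23570683. The annotated gene ran on by more than 50 bases beyond the loop in 26 of the 60 genes. The libraries were labelled as poly(A) RNA, and how histone mRNAs without a tail were captured was not tested. Near-identical copies share reads, so the value of a single histone gene is uncertain.

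The promoters are shown because clustered histone genes of all 5 types were higher in the members. RefSeq promoters on GRCm38 matched 61 of the 67 genes, and the 200 bases before the start were searched on both strands. The CCAAT box (CCAAT) was in 50 of 61 (82.0%) against 29.3% of 32851 promoters, in all H1, H2A and H2B promoters but in 3 of 12 H4 promoters. The TATA box (TATAAA) was in 26 (42.6%) against 9.96%, the H1 box (AAACACA) in 8 (13.1%) against 4.80%, with 5 of the 6 H1 promoters among them. The octamer (ATTTGCAT) was in 13 (21.3%), 7 of 17 H2A and 6 of 16 H2B promoters, against 1.38%. An E2F-like word (TTTNGCGC) was in 10 (16.4%), 7 of them H2B, against 0.953%. Each word was counted on its own, whether or not it overlapped another, and a match is a description of the letters only. Capitals mark matches of these words on either strand in the 120 bases next to the start.

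*Hist1h1b* promoter, chr13:21780626-21780745, minus strand: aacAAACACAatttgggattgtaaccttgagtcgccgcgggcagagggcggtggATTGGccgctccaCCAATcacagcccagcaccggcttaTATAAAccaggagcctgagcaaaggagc

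*Hist1h1e* promoter, chr13:23622559-23622678, minus strand: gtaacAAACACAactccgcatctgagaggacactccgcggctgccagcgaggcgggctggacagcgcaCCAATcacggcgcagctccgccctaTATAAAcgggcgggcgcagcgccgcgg

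*Hist1h4d* promoter, chr13:23581448-23581567, plus strand: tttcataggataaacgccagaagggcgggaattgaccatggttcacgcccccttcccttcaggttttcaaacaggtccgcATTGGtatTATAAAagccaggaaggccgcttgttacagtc

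The CD45.2 mRNA library held 196679316 UMIs in 24241 barcodes and the CD45.1 library 37309131 in 5232. The histone-high cells held 17848349 and 1466457 of these. A histone-high cell had a median of 11792 UMIs and 3235 genes in the CD45.2 and 8220 UMIs and 2648 genes in the CD45.1 sort, against 5704 and 4303 UMIs in the remaining cells, and its mitochondrial share was 2.04% and 1.94%. Raising the limit of 5500 genes to 8000 added 10 and 0 members, and 55 and 9 members had under 2000 UMIs. The sorts shared 38 barcodes, none of them a member.

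Histone UMIs were also found in barcodes outside the class. A UMI of *Hist1h2ap* or *Hist1h1b* was found in 23.4% of the 13118 remaining CD45.2 cells (22.6 to 24.1) and in 6.62% of the 2733 remaining CD45.1 cells (5.72 to 7.62). Of 248 CD45.2 barcodes with at least 2 of *Cd3d*, *Cd3e*, *Cd3g* and *Trbc2*, T cell genes that a B cell should lack, 29.4% had such a UMI (23.8 to 35.5, median 4307 UMIs), and 11 of them (4.44%) reached the histone threshold. Of 53 such CD45.1 barcodes 9.43% had one and 0 reached the threshold. A floor of 3 barcodes, used here in place of an exact interval, stands at 5.66%. Among the members 6 CD45.2 and 0 CD45.1 cells carried at least 2 of the T cell genes.

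Hashtags placed a minority of the CD45.2 members in a mouse. A cell was assigned when its highest hashtag had at least 3 times the count of the next. Of the 1437 CD45.2 members 425 (29.6%) were assigned, 405 (28.2%) had hashtag counts but no such majority and 607 (42.2%) had no hashtag counts, with medians of 12623, 15529 and 9374 UMIs. Of the 164 CD45.1 members 137 (83.5%) were assigned. HTODemux, the stricter rule of Seurat, called 534 of 830 hashtagged CD45.2 members (64.3%) and 34 of 147 CD45.1 members (23.1%) doublets. In the other classes with low *Jchain*, which are described below, it called 53.4% to 58.5% of hashtagged CD45.2 and 16.9% to 28.0% of hashtagged CD45.1 cells doublets. Values summed over a whole sort therefore include barcodes that may hold more than 1 cell, while values per mouse rest on assigned cells, which HTODemux would in part also call doublets: it left 86, 97 and 105 CD45.2 members of the wt/wt-labelled and 2, 1 and 5 of the cpm/cpm-labelled mice. Assigned CD45.2 members numbered 110, 139 and 136 in the wt/wt-labelled and 13, 8 and 19 in the cpm/cpm-labelled mice, and CD45.1 members 18, 12 and 27 and 30, 26 and 24.

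The sex-linked transcripts went against the sex recorded for the transferred cells. A note with the study gives the wild type cells a male and the Dock8 cpm/cpm cells a female origin. In all kept CD45.2 cells *Xist*, which is expressed from the inactive X of female cells, stood at 1264, 1362 and 1180.4 CPM in the wt/wt-labelled mice and at 350.0, 316 and 286 CPM in the cpm/cpm-labelled mice. The Y-linked *Ddx3y* stood at 3.29, 5.78 and 4.05 CPM and 56.2, 50.8 and 61.9 CPM. In the CD45.2 members of the second group *Xist* was at 607, 424 and 607 CPM beside 21.4, 16.9 and 35.7 CPM of *Ddx3y*, and 4, 2 and 4 cells held *Xist* and a Y-linked transcript together. The cells labelled cpm/cpm thus carried both kinds of transcript. *Dock8* itself was at 87.1, 99.4 and 91.8 CPM in CD45.2 members labelled wt/wt and at 57.1, 127 and 55.5 CPM in the cpm/cpm-labelled ones, and the groups overlapped. A mutation found by ENU mutagenesis need not change the level of the transcript, so this count does not check the labels. The remaining CD45.2 cells assigned to a mouse numbered 1517, 2051 and 1040 in the wt/wt-labelled and 159, 105 and 332 in the cpm/cpm-labelled mice. Those of the CD45.1 sort numbered 238, 348 and 602 and 417, 275 and 595. The paper reports that the BCL2 transgene restored Dock8 cpm/cpm GC B cells only in part. Whether labels were exchanged was not tested. Every comparison of the groups below rests on these labels, and the part of the mixed sex-linked transcripts in any difference was not tested.

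The histone-high cells carried clustered histone mRNA of all 5 histone types. The 67 genes together made up a median of 0.653% of a cell's UMIs in the CD45.2 and 0.638% in the CD45.1 sort. Summed over the CD45.2 members the 6 genes of linker histone H1 stood at 1845 CPM, the 18 H2A genes at 3424 CPM, the 18 H2B genes at 513 CPM, the 12 H3 genes at 542 CPM and the 13 H4 genes at 548 CPM. Against the remaining cells these sums were 15.7-fold, 38.8-fold, 10.4-fold, 21.4-fold and 8.07-fold higher. The rule used 1 gene of H1 and 1 of H2A, and the types H2B, H3 and H4, which it did not use, were higher as well. In the CD45.1 members the same sums were 2261, 2587, 518, 625 and 614 CPM. H2A genes gave 49.8% of the clustered histone UMIs in the CD45.2 and 39.2% in the CD45.1 members, and H1 genes 26.8% and 34.2%. UMIs of a 3′ method count ends of molecules and were not divided by length.

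4 other classes of the same libraries serve as a measure. Histone-high mitotic cells passed the histone threshold and also reached 3 CP10K of the mitotic sum (1225 CD45.2 and 176 CD45.1 cells), histone-low mitotic cells reached only the mitotic sum (1725 and 261), MCM-high cells reached neither but had at least 8 CP10K of *Mcm3*, *Mcm5*, *Mcm6* and *Mcm7* (1580 and 338), and the remaining cells reached none (13118 and 2733). Summed clustered histone mRNA in the CD45.2 sort was 6872 CPM in the histone-high and 7638 CPM in the histone-high mitotic cells. It was 578 CPM in the histone-low mitotic, 699 CPM in the MCM-high and 348 CPM in the remaining cells.

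**Figure D1:**
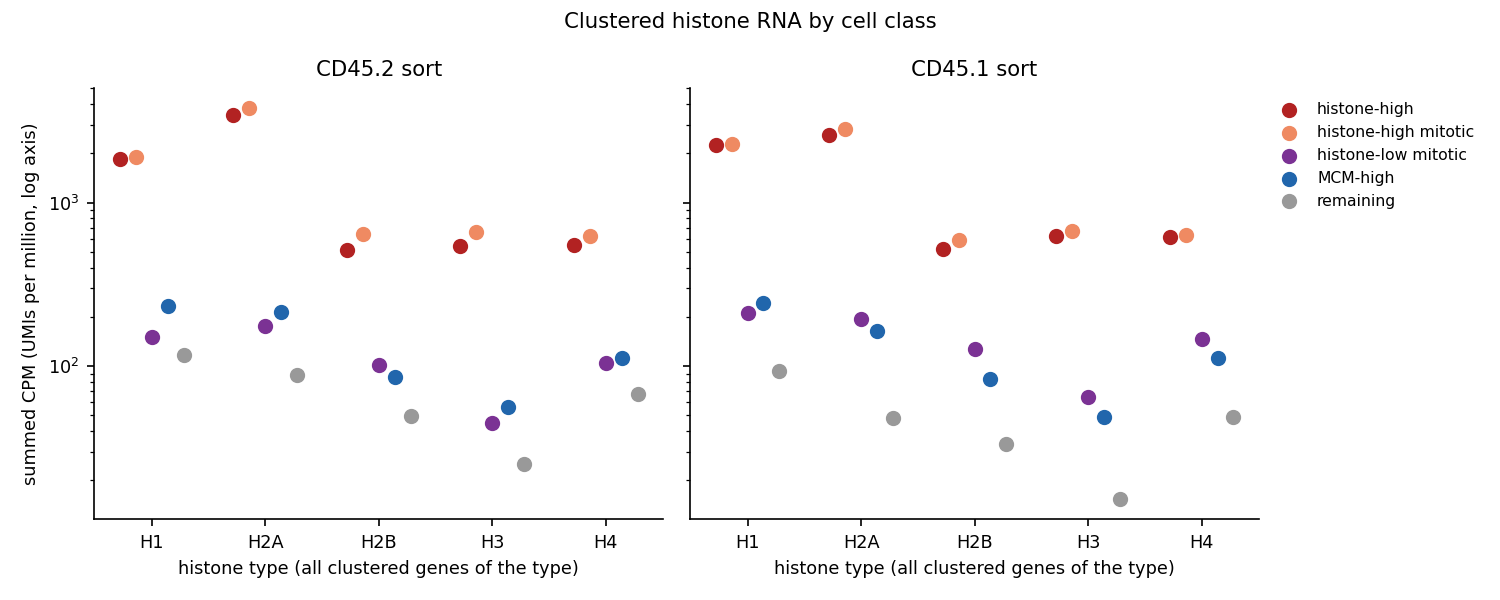
Summed clustered histone mRNA (CPM, log axis) by histone type in the 5 cell classes, CD45.2 cells on the left and CD45.1 cells on the right, with 1 point per class over all its cells. The histone-high and histone-high mitotic classes lie above the other classes for all 5 types, for example 542 against 25.3 CPM of H3 in the CD45.2 histone-high and remaining cells.

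The 5 marker genes of the class were read first. *Hist1h2ap* was at 1797 CPM in histone-high, 90.0 CPM in MCM-high and 30.5 CPM in remaining CD45.2 cells, and *Hist1h1b* at 959, 87.7 and 19.5 CPM. *Hist1h2ae*, which the rule did not use, followed with 1149.8, 70.3 and 20.3 CPM. *Pclaf*, which binds the replication clamp PCNA, was at 1696, 836 and 76.5 CPM. *Esco2*, which acetylates cohesin so that sister chromatids hold together behind the fork, was at 182, 52.7 and 7.38 CPM. In the CD45.1 members the 5 genes stood at 1142, 1121, 908, 1849 and 260.5 CPM. All 5 were higher in histone-high than in remaining cells in each of 11 mouse-and-sort sums with at least 10 members. For *Hist1h2ap* and *Hist1h1b*, whose sum separates the members from the remaining cells, this order was in effect built into the rule.

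Within each mouse and sort the log2 ratio of histone-high to another class was taken with 10 CPM added to both. Of 8736 genes whose level in members and remaining cells added up to at least 10 CPM, 16.4% were higher and 11.5% lower than in remaining cells in all 11 sums. The median log2 ratio over these genes was 0.03. A gene can pass this level through the class in which it is high, so counts and medians over the genes that passed only describe them. Of all 65 clustered histone genes outside the rule, whatever their level, 33 were higher in all 11 sums and 0 lower, while 44 of them passed the level and 7 would have passed it by their level in remaining cells alone. Against the MCM-high cells, where 2.92% of genes were higher and 1.36% lower in all 10 sums, 33 of the 65 were higher. The linker gene *Hist1h1e* (480.3 CPM in histone-high and 51.2 CPM in remaining CD45.2 cells), the H3 gene *Hist1h3c* (198 and 3.21 CPM) and the H4 gene *Hist1h4d* (206 and 16.1 CPM) stood apart from the remaining cells, while *Hist3h2a* did not, at 10.7 and 10.4 CPM.

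Replacement histones differed among themselves. *H2afz*, which encodes H2A.Z, was at 2829.7 CPM in histone-high and 436 CPM in remaining CD45.2 cells, a median log2 ratio of 3.07. *H2afx*, whose protein is phosphorylated at DNA breaks, was at 456 and 58.1 CPM and reached 869.5 CPM in histone-high mitotic cells. *H3f3a* and *H3f3b*, which encode H3.3, were at 2955 and 2414 CPM and at 2011 and 959 CPM. Of 10 genes of this list 9 were higher in all 11 sums, but the ratio of *H3f3a* was 0.35, far under that of *H2afz*.

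Genes of histone mRNA processing had smaller ratios. *Slbp*, the stem-loop binding protein, was at 369 CPM in histone-high, 351 CPM in MCM-high, 252 CPM in histone-high mitotic and 89.0 CPM in remaining CD45.2 cells, higher than in remaining cells in 11 of 11 sums (2.02 to 2.71 on the log2 scale). *Cpsf2*, a subunit of the complex that cuts histone mRNA, was at 166 and 92.2 CPM, *Eri1*, a nuclease that trims at the stem-loop, at 115 and 39.6 CPM, and *Casp8ap2*, which takes part in the processing, at 107 and 48.5 CPM. Of 12 genes of this list 8 were higher than in remaining cells in all 11 sums, and 0 higher than in MCM-high cells in all 10. The median log2 ratio was 0.91 against remaining and -0.02 against MCM-high cells.

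All 13 of 13 histone chaperone and deposition genes were higher in histone-high than in remaining cells in all 11 sums, with a median log2 ratio of 1.69. *Anp32b* was at 1469 CPM in histone-high and 573 CPM in remaining CD45.2 cells, *Set* at 929 and 460.3 CPM and *Rbbp4*, a subunit of the CAF-1 assembly factor and of other chromatin complexes, at 385 and 135 CPM. *Npm1*, a nucleolar chaperone, had the smaller ratio of 0.59. *Chaf1a*, the large subunit of CAF-1, which loads new histones at the fork, was at 114 CPM in histone-high and 117 CPM in MCM-high against 76.1 CPM in histone-high mitotic cells, and *Asf1b*, a carrier of H3 and H4, at 155, 107 and 145 CPM.

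Origin licensing genes were higher than in remaining cells but not than in MCM-high cells. Of 13 genes 12 were higher than in remaining cells in all 11 sums (median log2 ratio 2.50), while 0 were higher and 2 lower than in MCM-high cells (median -0.32). The MCM-high class was itself defined by 4 of these genes, and the remaining cells by lying under the same limit. Both comparisons were therefore in part set by the class rules. *Mcm6*, a subunit of the replicative helicase, was at 254 CPM in histone-high, 376 CPM in MCM-high and 41.1 CPM in remaining CD45.2 cells. *Cdc6*, which loads the helicase on origins and which no class rule used, was at 49.2, 81.3 and 6.27 CPM. *Gmnn*, which encodes the inhibitor of relicensing geminin, had the opposite order of the first 2 classes, at 276, 239.6 and 38.3 CPM.

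Nearly all replication fork genes were higher than in remaining cells. Of 33 genes 32 were higher than in remaining cells in all 11 sums (median log2 ratio 2.13), 5 higher than in MCM-high cells and 11 higher than in histone-high mitotic cells, where 2.05% of all genes were higher and 2.43% lower. The sliding clamp gene *Pcna* was at 478 CPM in histone-high and 72.8 CPM in remaining CD45.2 cells, the maintenance methyltransferase gene *Dnmt1* at 431 and 75.9 CPM and the ligase gene *Lig1*, which joins Okazaki fragments, at 407 and 34.1 CPM. *Clspn*, a mediator of the checkpoint at stalled forks, was at 202 and 13.9 CPM. None of these 4 genes was below its MCM-high level of 423, 357, 353 and 149 CPM.

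Nucleotide supply genes were also higher, with 10 of 11 genes higher than in remaining cells in all 11 sums (median log2 ratio 2.44) and 6 higher than in MCM-high cells. *Rrm2*, the S phase subunit of ribonucleotide reductase, was at 318 CPM in histone-high, 175 CPM in MCM-high, 212 CPM in histone-high mitotic and 19.2 CPM in remaining CD45.2 cells. Its partner *Rrm1* was at 203 and 22.6 CPM in histone-high and remaining cells. *Dut*, which keeps uracil out of the nucleotide pool, was at 855 and 111 CPM. Among the 13 genes of replication stress and homologous recombination 11 were higher than in remaining cells, with *Brca1* at 58.3 and 4.81 CPM. Of 13 cohesion genes 10 were higher, but the core subunits *Smc1a* (272 and 95.3 CPM) and *Smc3* (234 and 86.0 CPM) differed less than *Esco2*.

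In mitotic genes the histone-high cells lay between the MCM-high and the histone-high mitotic cells, an order that the class rules set in part. All 26 of 26 genes were higher than in remaining cells in all 11 sums and 20 higher than in MCM-high cells (median log2 ratio 1.35), whereas 22 were lower than in histone-high mitotic cells (median -0.94). Against histone-low mitotic cells, where 4.18% of all genes were higher and 3.16% lower, 2 were higher and 16 lower. The list shares genes with the mitotic sum, which was under 3 CP10K in members and at least 3 CP10K in both mitotic classes. The lower level than in those classes was thus in part built into the rule and is a description only. *Top2a*, the topoisomerase that untangles chromosomes, was at 303 CPM in MCM-high, 863 CPM in histone-high and 1259 CPM in histone-high mitotic CD45.2 cells. *Nusap1*, a spindle protein, was at 60.7, 303 and 589 CPM, and the proliferation marker *Mki67* at 363, 771 and 1213 CPM. *Plk1*, the kinase that starts mitosis, was at 12.6, 66.6 and 175 CPM.

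Of 21 cyclin and cycle control genes 15 were higher and 2 lower than in remaining cells in all 11 sums. *Ccne2*, a cyclin of the G1 to S passage, was at 159 CPM in histone-high, 140.2 CPM in MCM-high, 54.1 CPM in histone-high mitotic and 9.33 CPM in remaining CD45.2 cells. It led the genes that were higher in histone-high than in histone-high mitotic cells, followed by *Ubtf*, a factor of ribosomal RNA transcription (184 and 88.6 CPM), *Ccne1* (71.3 and 29.4 CPM), the spermidine synthase gene *Srm* (63.0 and 27.5 CPM) and *Cdca7* (129 and 49.4 CPM). *Ccna2*, the cyclin of S phase and G2, was at 156 CPM in histone-high, 46.3 CPM in MCM-high and 251 CPM in histone-high mitotic cells, and *Cdk1* at 163, 51.9 and 299 CPM. *E2f1*, the activator of S phase genes, was at 57.1 CPM, below its 73.9 CPM in MCM-high cells.

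**Figure D2:**
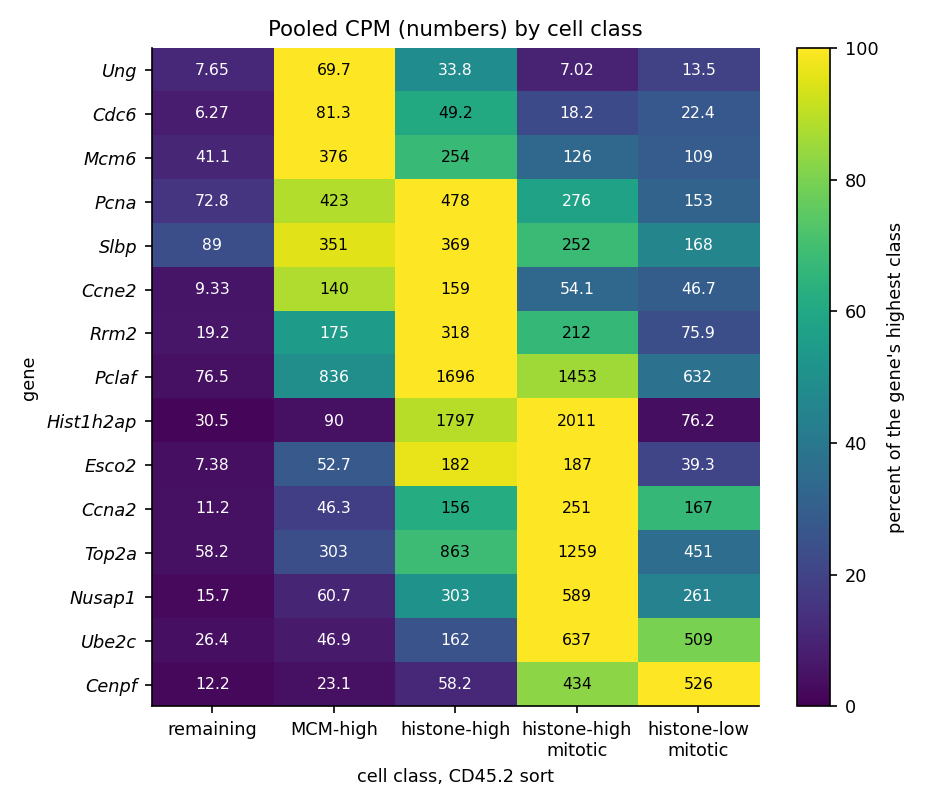
Heat map of 15 cell cycle and histone genes (rows) in the 5 classes of CD45.2 cells (columns); each cell gives the pooled level in CPM and its shade the percent of the gene's highest class. Licensing genes are brightest in the MCM-high class, histone genes in both histone-high classes and the mitotic genes in the mitotic classes, with *Ung* at 69.7 CPM in MCM-high and 33.8 CPM in histone-high cells.

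Dark zone genes were split. Of 10 genes 6 were higher and 1 lower than in remaining cells in all 11 sums (median log2 ratio 1.05), 3 were lower than in histone-high mitotic cells and 1 was higher and 2 lower than in MCM-high cells. *Mybl1*, a transcription factor gene, was at 182 CPM in histone-high, 184 CPM in MCM-high and 60.7 CPM in remaining CD45.2 cells. *Cxcr4*, the chemokine receptor that holds cells in the dark zone, was at 61.5, 58.2 and 38.0 CPM and higher than in remaining cells in 11 of 11 sums. *Polh*, an error-prone polymerase, was at 39.6, 22.1 and 9.82 CPM. *Foxp1*, in contrast, was at 278 CPM in histone-high and 555 CPM in remaining cells and higher in 0 of 11 sums, and *Foxo1* at 78.1 and 90.3 CPM was higher in 2 of 11. The dark zone name therefore held for most genes of the list against the remaining cells, but not against the other cycling classes.

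Light zone genes were not among those with higher levels. Of 14 genes 0 were higher and 2 lower than in remaining cells in all 11 sums, with a median log2 ratio of -0.46. *Cd83* was at 159.9 CPM in histone-high and 255 CPM in remaining CD45.2 cells, *Nfkbia*, an inhibitor and target of NF-κB, at 127 and 159 CPM and the adhesion receptor gene *Slamf1* at 54.9 and 70.8 CPM. Of 18 GC identity genes 4 were higher and 6 lower. *Basp1* was at 317 and 162 CPM, *Mef2b*, an activator of *Bcl6*, at 171 and 63.7 CPM, *Bcl6* itself at 94.9 and 62.9 CPM and the receptor subunit gene *Cd79a* at 1632 and 2822 CPM. Of 13 hypermutation and mismatch repair genes 10 were higher. *Ung*, which removes uracil from DNA, was lower than in MCM-high cells (33.8 and 69.7 CPM), where it led the genes with a lower level. *Apex1*, which cuts the resulting abasic site, was at 68.9 and 72.9 CPM.

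Genes of resting B cells were low. Of 10 genes 0 were higher and 9 lower than in remaining cells in all 11 sums (median log2 ratio -2.40), and their summed level was 1190.2 CPM against 4197 CPM. *Plac8* (179.6 and 1024 CPM), *S100a6* (23.3 and 116 CPM) and *Ighd* (135 and 537 CPM) were among the genes with the lowest ratios. Of 12 BCL2 family genes 0 were higher and 2 lower, with *Mcl1* at 289 and 436 CPM. The lists of other cell types made up little of the counts, apart from the plasma cell genes. The 12 T cell genes summed to 42.6 CPM in histone-high and 86.8 CPM in remaining CD45.2 cells, with *Lck* the most abundant. The 9 myeloid genes summed to 17.2 and 48.0 CPM, with *S100a8*, *S100a9* and *C1qa* at 0, and the 5 red cell genes to 66.4 and 36.4 CPM, with *Hbb-bt* the most abundant and *Alas2* at 0. The 10 plasma cell genes summed to 1983 and 2182 CPM, led by *Mzb1*, and the source of these counts was not tested. Plasma cells with high *Jchain* had been left out by the rule, and 331 CD45.2 and 89 CD45.1 barcodes above that limit also reached the histone threshold.

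The members varied widely in histone mRNA. The sum of *Hist1h2ap* and *Hist1h1b* ran from 10.0 to 79.4 CP10K in the CD45.2 members with a median of 26.1, and the CD45.1 median was 20.6. The CD45.2 members were placed in bins of 10 to 20, 20 to 50 and 50 to 100 CP10K, which held 464, 874 and 99 cells with medians of 11818, 12100.0 and 8701 UMIs. The CD45.1 members in these bins numbered 77, 85 and 2. *Ung* and *Cdc6* were lower and mitotic genes higher in the higher bins, while the 13 licensing genes summed to 1989, 1926 and 2099 CPM. *Ung* was at 50.6, 26.5 and 19.0 CPM, *Cdc6* at 62.4, 43.1 and 42.2 CPM and *Mcm3* at 267, 242 and 236 CPM. *Pcna* was at 461, 483 and 522 CPM, and *Ccne2* was at 177, 151 and 152 CPM. The markers that the rule did not use were higher with more histone mRNA. *Pclaf* was at 1407, 1797 and 2259 CPM and *Esco2* at 136, 194 and 305 CPM. Mitotic genes were also higher there, within the mitotic limit of the rule. *Top2a* was at 628, 944 and 1333 CPM, *Nusap1* at 184, 343 and 556 CPM and *Mki67* at 614, 814 and 1218 CPM. *Hist1h1e*, a histone gene the bins did not use, was at 292, 552 and 780.5 CPM. In the CD45.1 members the lower 2 bins, with 77 and 85 cells, had 53.7 and 19.0 CPM of *Ung*, 219 and 297 CPM of *Esco2* and 880.1 and 1207 CPM of *Top2a*, in the order of the CD45.2 bins. *Pcna* had the other order, at 683 and 633 CPM, and the licensing genes summed to 2481 and 2151 CPM. The bins of a sort share 1 library and the highest CD45.2 bin had the lowest median depth, and none of these orders was tested.

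**Figure D3:**
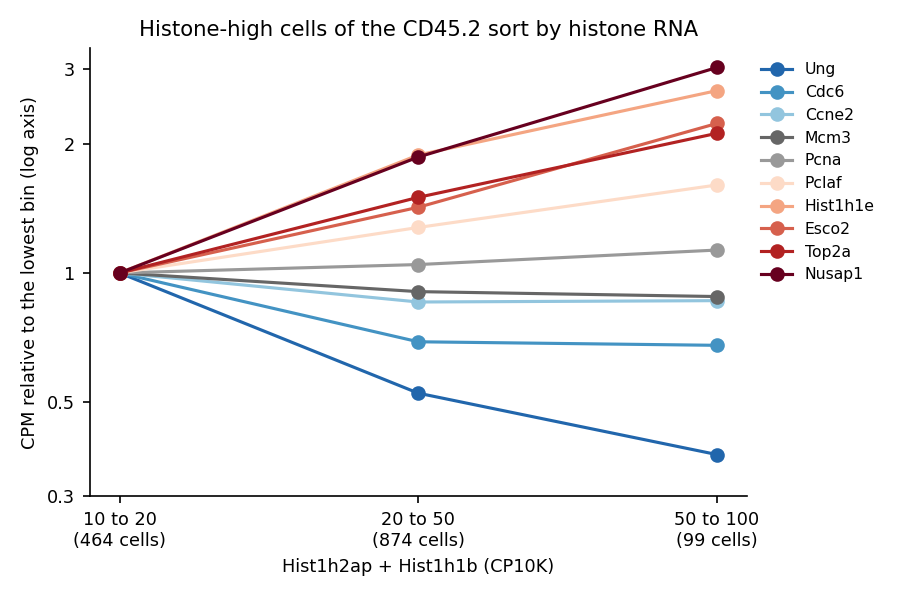
Level of 10 genes in CD45.2 histone-high cells relative to the lowest bin (y axis, ratio) over 3 bins of the summed *Hist1h2ap* and *Hist1h1b* level (x axis, CP10K), with 464, 874 and 99 cells. *Nusap1*, *Esco2* and *Top2a* lie above 1 in the highest bin and *Ung* and *Cdc6* below it.

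Cells on both sides of the thresholds were compared without a test. The 88 CD45.2 members with a histone sum of 10 to under 12 CP10K had 443 CPM of *Hist1h2ae*, 1341 CPM of *Pclaf* and 612 CPM of *Top2a*. The 85 cells just outside, at 8 to under 10, had 396, 1269 and 597 CPM. In the CD45.1 sort the order of these genes was the opposite, with 423, 1357 and 575 CPM in the 12 members just inside and 535, 1625 and 761 CPM in the 15 cells just outside. *Esco2* was higher just inside in both sorts (128 and 112 CPM in CD45.2, 192 and 141 CPM in CD45.1 cells). *Mki67* was lower just inside in both (562 and 584 CPM, 695 and 1117 CPM). At the mitotic limit the 323 CD45.2 members with a sum of 2 to under 3 CP10K had 966 CPM of *Top2a* and 109 CPM of *Ccnb2*, and the 231 cells just outside, at 3 to under 4, had 1141 and 141 CPM. The 28 CD45.1 members and 31 CD45.1 cells of these bands had 1277 and 1303 CPM of *Top2a* and 116 and 112 CPM of *Ccnb2*.

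The share of histone-high cells was compared between mice, a contrast the rule did not use. It is the percent of a mouse's assigned barcodes with *Jchain* under 50, and intervals are 95% exact binomial. In the CD45.2 sort the shares were 5.62% (4.64 to 6.74), 5.24% (4.42 to 6.16) and 8.73% (7.37 to 10.2) in the wt/wt-labelled mice and 5.88% (3.17 to 9.85), 5.59% (2.45 to 10.7) and 4.50% (2.73 to 6.94) in the cpm/cpm-labelled mice. The groups overlapped, with the highest value in 1 wt/wt-labelled and the lowest in 1 cpm/cpm-labelled mouse. The means were 6.53% ± 1.91 and 5.33% ± 0.728 (SD, n = 3 each), a difference of -1.20 points (2-sided exact permutation test, p = 0.5, the smallest possible p being 0.1). In the CD45.1 sort, whose cells are Dock8 wt/wt in both groups, the shares were 5.31% (3.18 to 8.26), 2.73% (1.42 to 4.72) and 3.36% (2.23 to 4.85) and 5.20% (3.54 to 7.34), 6.37% (4.20 to 9.20) and 3.26% (2.10 to 4.81). Their means were 3.80% ± 1.35 and 4.94% ± 1.57 (SD, n = 3 each), a difference of 1.14 points (exact permutation test, p = 0.5), and the groups again overlapped.

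**Figure D4:**
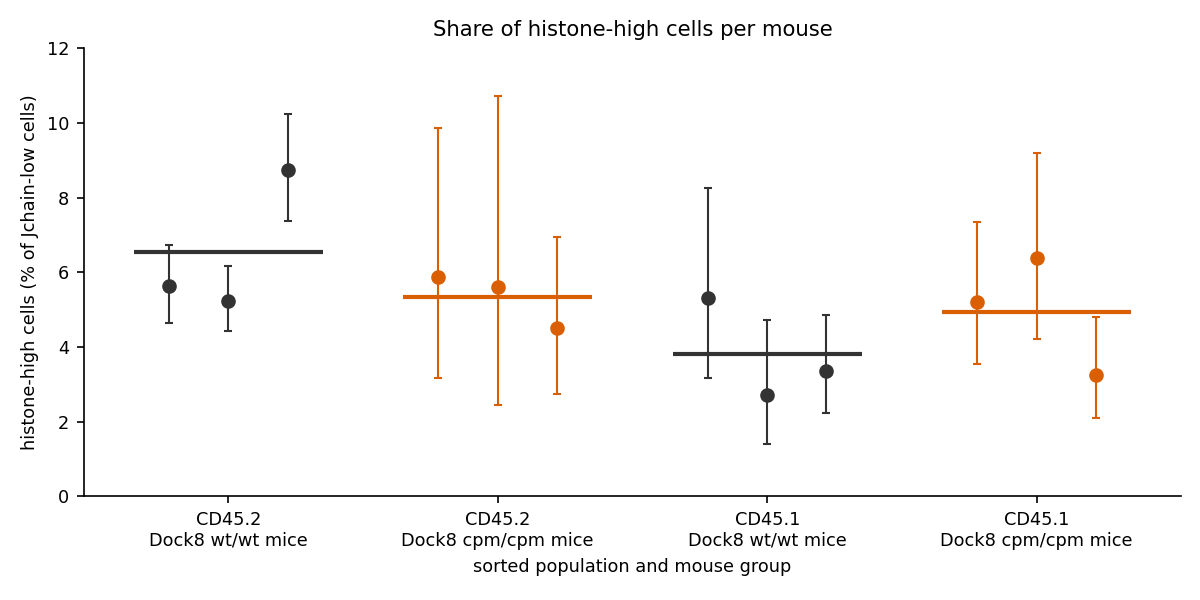
Histone-high cells as percent of each mouse's assigned barcodes with low *Jchain* (y axis), by sort and labelled group (x axis); points are mice, bars 95% exact binomial intervals and lines group means. The group means are 6.53% and 5.33% in the CD45.2 and 3.80% and 4.94% in the CD45.1 sort, and the mice of the groups overlap in both.

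Within the wt/wt-labelled mice the CD45.2 share was above the CD45.1 share of the same mouse in 3 of 3 mice, by 2.73 points ± 2.53 (SD, n = 3, exact permutation test over sign changes, p = 0.25, which is the smallest that 3 pairs allow). In mouse 1 the order was the opposite at a histone threshold of 5 CP10K (6.80% in the CD45.2 and 7.08% in the CD45.1 sort). It was also the opposite there in cells thinned to 2000 UMIs (6.70% and 7.62%), but not in the other settings. In the cpm/cpm-labelled mice the mean difference between the sorts was 0.382 points ± 1.04, and the difference between groups was -2.35 points (exact permutation test, p = 0.3, n = 3 each). Median UMIs per CD45.2 member were 12636 ± 1219 and 11783 ± 1844 (difference -853, p = 0.6) and per CD45.1 member 8813 ± 279 and 8355 ± 1166 (difference -458, p = 0.5), by exact permutation tests with n = 3 each. Clustered histone mRNA made up 0.673% ± 0.0374 and 0.608% ± 0.0678 of the UMIs of CD45.2 members and 0.662% ± 0.0913 and 0.702% ± 0.0673 in the CD45.1 members. This share holds the 2 genes on which every member was chosen and is given as a description. After Benjamini-Hochberg adjustment over 8 exact tests, with 2 of that share among them, the p-values were 0.571 to 0.6. No difference between the groups was detectable with 3 mice each.

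The CD45.2 and CD45.1 members of the same wt/wt-labelled mice were then compared gene by gene, with mouse as a block (edgeR, Benjamini-Hochberg adjustment at 0.05). Of 7104 genes 85 were called (1.2%), 59 higher (0.831%) and 26 lower (0.366%) in the CD45.2 cells, and 683 genes (9.61%) had an unadjusted p under 0.05. DESeq2 called 12 genes and edgeR with HTODemux assignment 43, all of them among the 85. Called genes of the resting B cell list and *Bcl2* stood higher, and *Cyp51*, *Fdps*, *Kif11* and *Rrm2* lower. In simulated counts of this design 39% of 2-fold and 85% of 4-fold changes were recovered. The CD45.1 sums held 18, 12 and 27 cells, so a change seen there rests on few cells. The BCL2 transgene, the CD45 allele and the library separated the sorts together, and their parts in these differences cannot be told apart.

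*Bcl2*, the mRNA of the survival factor, was at 92.8, 113 and 92.4 CPM in the CD45.2 cells against 0, 0 and 7.67 CPM in the CD45.1 cells (log2 fold change 4.71, SE 0.544, edgeR adjusted p = 9.35e-15). The CD45.1 cells held 2 UMIs of it in all, both in 1 cell of mouse 3, and the ratio of pooled counts was 27.1 with a counting interval of 7.45 to 224. Without that mouse, with no UMI left in the CD45.1 cells, the fitted log2 fold change was 9.51, and under HTODemux it was 9.05. Whether reads of the transgene were counted under this gene is not given in the sources used here. In members of the cpm/cpm-labelled mice *Bcl2* was at 85.6, 0 and 63.5 CPM in the CD45.2 cells, and the CD45.1 cells held 2, 0 and 0 UMIs of it. Genes of resting B cells were higher too. *Gpr183*, a receptor that guides B cells to the outer follicle, was at 63.7, 33.1 and 55.1 CPM in the CD45.2 cells against 5.94, 8.77 and 19.2 CPM in the CD45.1 cells (log2 fold change 2.07, SE 0.471, edgeR adjusted p = 0.00207). *Ighd*, the constant region of surface IgD, was at 121, 156 and 95.2 CPM in the CD45.2 cells against 35.6, 26.3 and 76.7 CPM in the CD45.1 cells (log2 fold change 1.19, SE 0.268, edgeR adjusted p = 0.00186). *Btg1*, a brake on proliferation, was at 468, 509 and 486 CPM in the CD45.2 cells against 232, 333 and 303 CPM in the CD45.1 cells (log2 fold change 0.80, SE 0.141, edgeR adjusted p = 5.40e-06). The groups of 3 did not overlap in any of these genes, as in 18.8% of all genes tested.

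Of the resting B cell list 5 of 9 tested genes were called, all higher in the CD45.2 members, where 0.831% of all genes tested were called higher. The list had a median log2 fold change of 1.19 beside 0.01 for all genes. The summed level of the 10 genes was 1123, 1136 and 1076 CPM in the CD45.2 and 523, 631 and 897 CPM in the CD45.1 members. In the remaining cells of the same mice it was 4709.9, 4328 and 3637 CPM and 3083, 2682 and 2881 CPM, so the sum was higher in the CD45.2 cells of that class too. The part of the library in the difference was not tested.

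5 called genes, *Gm10801*, *Tvp23b*, *Ahnak*, *Itgb7* and *Rgs18*, had no UMI in the CD45.1 members. They passed the low-count filter only through the CD45.2 sums, where they were high, so their levels are given as a description. Against 3 counts over the CD45.1 group they were at least 3.77-fold, 3.34-fold, 3.01-fold, 2.91-fold and 2.76-fold higher in the CD45.2 members. *Cd55*, which protects cells from complement, was at 28.4, 28.5 and 26.4 CPM in the CD45.2 cells against 5.94, 0 and 0 CPM in the CD45.1 cells (ratio of counts 15.1, counting interval 2.66 to 599) and *S100a6* at 17.0, 36.0 and 17.2 CPM in the CD45.2 cells against 0, 8.77 and 0 CPM in the CD45.1 cells (ratio 12.8, 2.25 to 510). *Gm10800* was at 92.1, 113 and 111 CPM in the CD45.2 cells against 5.94, 8.77 and 7.67 CPM in the CD45.1 cells (log2 fold change 3.85, SE 0.458, edgeR adjusted p = 5.48e-14). *Arhgef18* completed the 10 genes with the largest positive change. *Bcl2*, *Gm10800*, *Btg1* and *AY036118* were called whichever of the 3 mice was left out. *Gpr183* and *H3f3a* lost their calls without mouse 1 (edgeR adjusted p = 0.151 and 0.0611), *Basp1* without mouse 2 and *Ighd* without mouse 1 or 2. *Hist1h2ae*, *Kif11*, *Pou2af1*, *Cyp51*, *Cd55*, *Bst2* and *Arhgef18* lost theirs without mouse 2 or 3, and *Rrm2*, *Fdps*, *Ncapd3*, *Zfp212*, *Gm10801* and *Tvp23b* without mouse 1 or 3. *Ahnak*, *Itgb7*, *Rgs18*, *S100a6*, *Rad54b*, *Lonp2* and *Erp44* lost theirs whichever mouse was left out.

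Among the histone genes *Hist1h2ae* was called, at 1066, 1129 and 1119.9 CPM in the CD45.2 cells against 992, 816 and 755 CPM in the CD45.1 cells (log2 fold change 0.42, SE 0.0979, edgeR adjusted p = 0.00349). Of 39 clustered histone genes tested outside the rule it alone was called, beside 1.2% of all genes tested, and 10 had a positive fold change (median -0.25). The levels of the rule's own genes are given without a test, although *Hist1h2ap* is among the 85. *Hist1h2ap* was at 1771, 1819 and 1687 CPM in the CD45.2 cells against 1147, 991 and 1223 CPM in the CD45.1 cells. *Hist1h1b* was at 972, 1004 and 884 CPM in the CD45.2 cells against 867, 1394 and 1112 CPM in the CD45.1 cells. The replacement histone gene *H3f3a* was lower, at 2748, 2938 and 2744 CPM in the CD45.2 cells against 4414, 3674 and 3526 CPM in the CD45.1 cells (log2 fold change -0.42, SE 0.0709, edgeR adjusted p = 1.40e-06).

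Among the genes with a lower level in the CD45.2 members *Kif11*, the kinesin that separates spindle poles, was at 142, 146 and 141 CPM in the CD45.2 cells against 172, 324 and 276 CPM in the CD45.1 cells (log2 fold change -0.79, SE 0.175, edgeR adjusted p = 0.00138). *Rrm2* was at 307, 337 and 293 CPM in the CD45.2 cells against 505, 395 and 437 CPM in the CD45.1 cells (log2 fold change -0.50, SE 0.138, edgeR adjusted p = 0.0287). Both genes act in dividing cells. *Zfp212* was at 4.42, 8.14 and 6.31 CPM in the CD45.2 cells against 35.6, 35.1 and 30.7 CPM in the CD45.1 cells (log2 fold change -2.38, SE 0.581, edgeR adjusted p = 0.00619). *AY036118* was at 475, 591 and 572 CPM in the CD45.2 cells against 1331, 1315 and 1429.7 CPM in the CD45.1 cells (log2 fold change -1.29, SE 0.0976, edgeR adjusted p = 1.20e-35). In each of these 4 genes every CD45.1 sample lay above every CD45.2 sample, and in 18.8% of all genes tested the groups did not overlap. *Cyp51* and *Fdps*, enzymes of sterol and isoprenoid synthesis, had log2 fold changes of -0.88 and -0.76. *Rad54b*, a helper of recombination, *Lonp2*, the antiviral tether *Bst2*, the condensin gene *Ncapd3* and *Erp44* were between -1.32 and -0.65. Of the 33 replication fork genes 0 were called and 5 had a positive fold change (median -0.28). Of 26 mitotic genes *Kif11* alone was called, and of 10 dark zone and 13 light zone genes none, beside 1.2% of all genes tested. The GC identity genes *Basp1* (278, 291 and 387 CPM in the CD45.2 cells against 345, 666 and 456 CPM in the CD45.1 cells) and *Pou2af1*, a coactivator of antibody genes (464, 482 and 469 CPM in the CD45.2 cells against 463, 324 and 261 CPM in the CD45.1 cells), moved in opposite directions, with log2 fold changes of -0.52 and 0.50.

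Some ribosomal and mitochondrial genes were called between the sorts, beside 1.2% of all 7104 genes tested (0.831% higher and 0.366% lower). Of 86 ribosomal protein genes tested 14 were called, all higher in the CD45.2 members by 0.26 to 0.63 on the log2 scale, and 67 had a positive fold change (list median 0.06). *Rpl39*, counted apart as sex-linked, was also called (log2 fold change 0.58, SE 0.0644, edgeR adjusted p = 3.72e-16). The summed level of all 96 genes of the list, with *Rpl39* among them, was 282155, 270394 and 276340.0 CPM in the CD45.2 and 266630.0, 262029 and 250546 CPM in the CD45.1 members, without overlap. In the remaining cells the order within each mouse was the opposite, at 330993, 309812 and 345934 CPM and 334065, 317375 and 358039 CPM. *Rps29* was at 8861, 8843 and 8690.5 CPM in the CD45.2 cells against 6101, 6086 and 6198 CPM in the CD45.1 cells. Of 13 mitochondrial genes 3 were called, with log2 fold changes from -0.52 to -0.30, while the summed level of the 13 overlapped between the sorts (19685, 20308 and 20696 CPM in the CD45.2 and 25136, 20835 and 20315 CPM in the CD45.1 members). Of the 85 genes 82 in histone-high mitotic (58.5% of all 7104 genes tested), 78 in histone-low mitotic (55.7%), 77 in MCM-high (56.6%) and 72 in remaining (56.8%) cells of the same mice had the same sign. The median absolute log2 ratio of the 85 was 0.651 in histone-high and 0.355 in remaining cells. The 85 were called on the histone-high cells, so the larger value there does not compare the classes. All these classes share libraries and mice with the members.

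**Figure D5:**
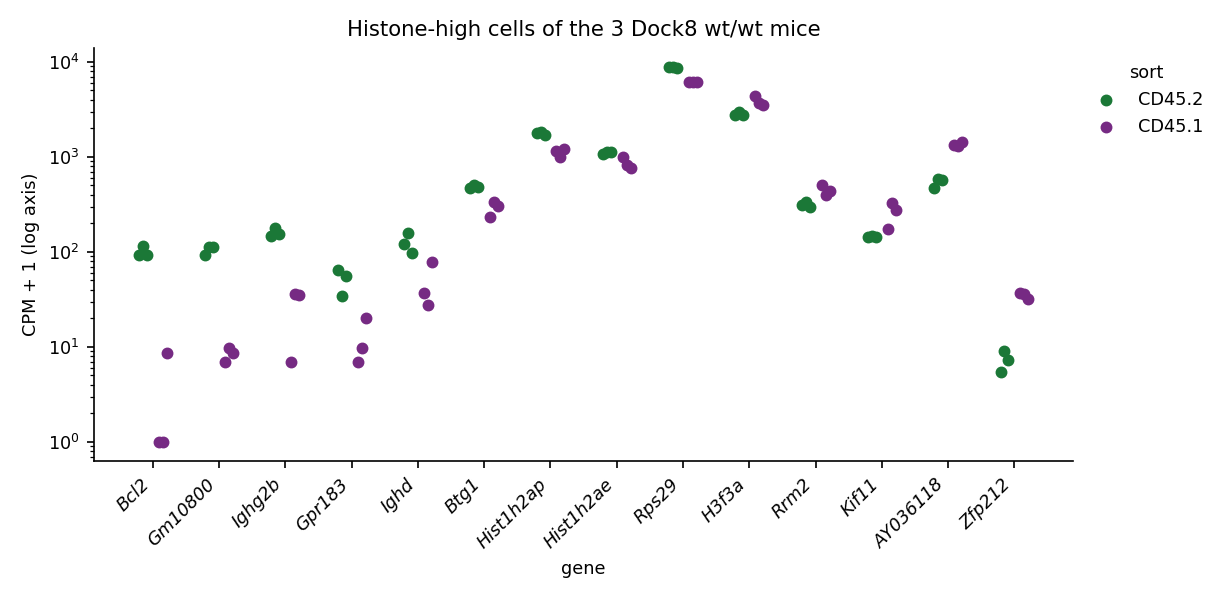
Level of 14 genes (CPM + 1, log axis) in the histone-high cells of the 3 wt/wt-labelled mice, with 1 point per mouse for the CD45.2 and for the CD45.1 sort. *Bcl2* lies between 92.4 and 113 CPM in the CD45.2 and between 0 and 7.67 CPM in the CD45.1 cells, and *AY036118* lies higher in the CD45.1 cells.

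The CD45.1 members, which are Dock8 wt/wt in every mouse, were compared between the groups of mice to read the effect of the surroundings. Of 3369 genes 0 were called by edgeR (0.0%) and 0 by DESeq2, while 150 (4.45%) had an unadjusted p under 0.05. In simulated counts of this design 62% of 2-fold and 98% of 4-fold changes were recovered. No clustered histone gene outside the rule and no fork, mitotic or dark zone gene was called, out of 24, 30, 22 and 8 tested in the clustered histone, fork, mitosis and dark zone lists.

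In the CD45.2 members 3 of 7060 genes (0.0425%) differed between the groups by edgeR, all higher in the cpm/cpm-labelled mice, and 458 (6.49%) had an unadjusted p under 0.05. The sums held 13, 8 and 19 cells in that group, and 43% of 2-fold and 77% of 4-fold changes were recovered in simulated counts. *Hspa8*, the constitutive heat shock protein 70, was at 891, 782 and 898 CPM in the wt/wt-labelled mice and 1206, 1940.2 and 1162 CPM in the cpm/cpm-labelled mice (log2 fold change 0.69, SE 0.125, edgeR adjusted p = 0.0261). The CD45.1 members of the same mice held 1229.8, 842 and 893 and 1071, 1422 and 1049 CPM of it. *Hsp90aa1*, an inducible chaperone of the HSP90 family, was at 1056, 1027 and 1116 CPM in the wt/wt-labelled mice and 1342, 1779 and 1487 CPM in the cpm/cpm-labelled mice (log2 fold change 0.50, SE 0.0989, edgeR adjusted p = 0.0366). The groups did not overlap for either gene, as in 15.7% of all genes tested. *Hsp90aa1* did not overlap in the CD45.1 members either, which are Dock8 wt/wt in both groups, at 1200.0, 1131 and 1043 and 1373, 1559.5 and 1501 CPM (log2 fold change 0.36, SE 0.114, edgeR adjusted p = 0.920; the groups did not overlap in 10.6% of genes). Its interaction was 0.13 (SE 0.133, edgeR adjusted p = 0.983). The *Hspa8* call was lost without wt/wt-labelled mouse 2 or 3 or cpm/cpm-labelled mouse 2 (edgeR adjusted p = 0.0673, 0.0518 and 0.448), and the *Hsp90aa1* call whenever a mouse other than cpm/cpm-labelled mouse 1 was left out. *Dqx1* (log2 fold change 4.39) overlapped between the groups, and all 138 of its UMIs in cpm/cpm-labelled mouse 2 came from 1 cell.

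The gene groups of the class were not called in this comparison. Of the clustered histone genes outside the rule 12 of 40 had a positive fold change (median -0.17), of the licensing genes 10 of 12 (0.15), of the fork genes 25 of 33 (0.14), of the mitotic genes 7 of 26 (-0.09) and of the light zone genes 1 of 13 (-0.46). The median over all genes was -0.01. In the CD45.1 members, Dock8 wt/wt in both groups, the same lists had 13 of 24 (0.06), 7 of 12 (0.07), 21 of 30 (0.15), 14 of 22 (0.05) and 0 of 6 (-0.54), with all genes at -0.01. The fork median was above 0 and the light zone median below 0 in both sorts. *Xist* and *Ddx3y* were counted apart, with log2 fold changes of -1.34 and 3.05.

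The difference between the CD45.2 and CD45.1 members of a mouse was compared between the groups as an interaction. Of 4058 genes 1 was called by edgeR (0.0246%), the antibody constant region gene *Ighg2b* (log2 fold change -3.97, SE 0.671, edgeR adjusted p = 0.000906), and 212 (5.22%) had an unadjusted p under 0.05. *Ighg2b* was at 145, 176 and 154 CPM in the CD45.2 members labelled wt/wt and at 186, 8.47 and 75.4 CPM in the cpm/cpm-labelled ones. In the CD45.1 members it was at 5.94, 35.1 and 34.5 CPM and 31.5, 45.9 and 585 CPM. In the third mouse of the last group 132 of its 149 UMIs came from 1 cell, and the call was lost without that mouse (adjusted p = 0.814 by edgeR). In simulated counts 32% of 2-fold and 69% of 4-fold interactions were recovered.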

How the data were processed

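Hashtagged GC B cells of 6 recipient mice were measured in 1 mRNA and 1 hashtag library per sort. The authors aligned reads to mm10 with Cell Ranger 5.0.1, used Seurat 4.0 (submitters' processing notes) and deposited whole UMI counts per gene and barcode and hashtag counts per barcode, without normalization. Mouse and group of each hashtag came from the authors' table, which also pairs both sorts of a mouse. All columns of per-sample values were used.

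From the counts, cells were filtered and chosen as given above, assigned by the 3-fold hashtag rule (at least 10 hashtag counts as an alternative), and summed per mouse and sort (at least 10 cells, 5 for the CD45.2 group comparison and the interaction, and 1 under HTODemux and the 10-fold hashtag rule). Sums were tested in Python 3.11.15 (numpy 2.4.6, pandas 2.3.3, scipy 1.17.1, pysam 0.24.0, matplotlib 3.10.9) and R 4.3.3 by edgeR 4.0.16 with its quasi-likelihood test (limma 3.58.1, filterByExpr, TMM, Benjamini-Hochberg adjustment at 0.05). Mouse was a block between sorts. Tests over mice were 2-sided exact permutation tests. The tests were checked on simulated counts. DESeq2 1.42.0, HTODemux (Seurat 5.3.0, quantile 0.99), RLE size factors, no low-count filter, a histone threshold of 5 or 20 CP10K, a cap of 8000 genes, shares of all kept cells, cells thinned to 2000 UMIs, a minimum of 2000 UMIs and each mouse left out were alternatives. The 10-fold hashtag rule was added after the hashtag counts were seen. Doublets were removed only through hashtags.

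Members, class rules and gene lists were chosen with earlier results of these data known. Named genes were the rule and marker genes, *Dock8*, called or otherwise the 4 most abundant genes of each list, the 10 largest called changes per direction (same direction in every mouse between sorts, 30.7% of genes tested, and without overlap between groups), and the 15 leading genes per class comparison at 50 CPM or more. *Cxcr4*, *Foxo1*, *Polh*, *Chaf1a*, *Asf1b*, *H2afx*, *Mef2b*, *Bcl6*, *Cd79a*, *Hist3h2a*, *Rps29*, *Ccnb2*, the genes of the plots and the ribosomal and mitochondrial lists were chosen after their values were seen. 8 sex-linked genes were counted apart.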

Additional observations from a re-analysis of the deposited data

Results flagged for a closer look

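2 results stood out because the gap from the CD45.1 to the CD45.2 histone-high cells was itself different between the groups of mice. *Xist* had an interaction of -1.37 on the log2 scale (edgeR adjusted p = 2.53e-08), with 1391, 1490.5 and 1325 CPM in the CD45.2 members labelled wt/wt, 607, 424 and 607 CPM in the cpm/cpm-labelled mice, 1349, 1771 and 1771 CPM in the CD45.1 members of the first group and 1927, 1518 and 1583 CPM of the second. *Ighg2b* had an interaction of -3.97 (edgeR adjusted p = 0.000906), and its value in the third CD45.1 sample of the cpm/cpm-labelled mice came almost wholly from 1 cell.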

How the results depend on the processing

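Of 89 alternatives to the 8 tests over mice 85 kept the direction and 4 reversed, and with a smallest p of 0.1 (0.25 for the 3 pairs) in the exact permutation tests none could pass the threshold. Under HTODemux the cpm/cpm-labelled mice held 2, 1 and 5 CD45.2 members, and values by group with it rest on these few cells. It moved the CD45.2 share by group to -2.32 points, the interaction to -4.04 points and median UMIs of CD45.2 members to -2621, and shares of all kept cells moved the CD45.2 difference to -0.161 points. The difference of the clustered histone share in CD45.2 members became 0.0161 points under HTODemux. Leaving out 1 mouse at a time gave -0.0880 to -0.0257 points for it and -0.000342 to 0.0894 points in CD45.1 members. Median UMIs then differed by -1479 to 206 (CD45.2) and -1104 to 28.8 (CD45.1), shares by -1.85 to -0.105 points (CD45.2), 0.430 to 1.99 (CD45.1), 1.41 to 3.94 (between sorts) and -3.56 to -1.03 (interaction).

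Counts of called genes moved more. Between the sorts 85 genes became 12 with DESeq2 (all 12 among the 85), 43 with HTODemux, 42 with the 10-fold hashtag rule, 65 with no replicate block, 56 with all 4 groups in a fit with the replicate block, and 49 to 62 with 1 mouse left out (39 to 48 of them among the 85). It became 105 without the low-count filter and 88 at a threshold of 20, with 73 and 49 of the 85 among them. Of the 85 genes 10 were called in all 15 settings and 84 kept their sign in each setting that tested them. In the CD45.1 members by group 0 became 1 without a low-count filter and 0 to 1 with 1 mouse left out. In the CD45.2 members by group 3 became 28 without the filter, 0 with HTODemux (sums of 2, 1 and 5 cells) and 0 to 14 with 1 mouse left out, and *Dqx1* ran from -0.21 without cpm/cpm-labelled mouse 2 to 5.16 without mouse 3. *Hspa8* lost its call with DESeq2 and *Hsp90aa1* at a threshold of 20, and both with HTODemux at those cell numbers. For the interaction 1 became 0 with DESeq2, HTODemux (the same few cells) or no replicate block, 7 without the filter, 3 at a threshold of 20, and 1 to 9 with 1 mouse left out. The causes were not tested. The 8 CD45.2 members of the smallest cpm/cpm-labelled sum and the 12 CD45.1 members of the smallest wt/wt-labelled sum limit the depth.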
